A study of Mus musculus with 18 samples.

Results

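The 9 genes described here (Cebpa, Cebpb, Cebpd, Cebpe, Gfi1, Spi1, Runx1, Klf2 and Irf8) encode transcription factors that govern granulopoiesis, the making of neutrophils, or the state of the mature cell. They were picked by gene symbol and not by their levels, and all 9 are among the 17941 gene symbols of the count table. The cells were splenic neutrophils of female NZBWF1/J mice. In this F1 hybrid a disease like lupus sets in with age, and the series compares 3 stages of it. The 3 groups were mice of 14, 20 and 26 weeks, with 6 mice in each and 1 RNA sequencing library per mouse. Every mouse was female, of the same strain and untreated, and mice of another strain were not analysed here. Cells were taken by flow cytometry as single live (DAPI negative) cells that carried Ly6b, CD11b and Ly6G and an intermediate amount of Ly6C. Titles call the libraries of an age biological replicates.

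Neutrophils arise from multipotent progenitors in steps that are set by a small group of transcription factors. RUNX1, PU.1 (encoded by Spi1) and C/EBP alpha (Cebpa) open the myeloid programme, GFI1 and C/EBP epsilon (Cebpe) carry promyelocytes towards granule-bearing neutrophils, and IRF8 turns shared progenitors towards monocytes. C/EBP beta (Cebpb) serves granulopoiesis on demand in infection and inflammation, C/EBP delta (Cebpd) takes part in acute inflammatory responses, and KLF2 is known for holding leukocytes in a quiescent, less inflammatory state.

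The libraries held 5546624 to 17256379 counts in genes and detected 8119 to 13164 genes. The one with the fewest genes, replicate 3 of 20 weeks, stood apart, with a median correlation of 0.756 with the other libraries of its age. The label was checked on 8 neutrophil markers, of which none was at 0 in all 6 libraries of any age. Their summed level had a median of 39659 CPM (reads of a gene over the TMM-scaled total of its library) at 14 weeks, 23999 CPM at 20 weeks and 67213 CPM at 26 weeks. Markers of other cells were present at low levels, and their sums moved with age. Summed levels of 9 B cell markers ranged from 47.4 to 181 CPM at 14 weeks, from 185 to 1853 CPM at 20 weeks and from 68.8 to 268 CPM at 26 weeks. Those of 10 monocyte and macrophage markers ranged from 244 to 591 CPM, from 612 to 1222 CPM and from 259.6 to 569 CPM at the 3 ages in the same order. Those of 8 dendritic cell markers had medians of 7.92, 52.2 and 18.2 CPM at 14, 20 and 26 weeks, and those of 6 plasma cell markers 158, 841 and 329 CPM. Defining markers of these types at 0 in every 14-week library were Cr2 (B cell), Sdc1 (plasma cell), C1qa, C1qb, Cx3cr1 and Ccr2 (monocyte and macrophage), and Clec9a and Siglech (dendritic cell). At 20 weeks Fcer2a (B cell) and Xcr1 (dendritic cell) were at 0. At 26 weeks Cr2, Blk, C1qa, C1qb, Flt3, Clec9a and Siglech were among those at 0. Few genes carried these sums. At 20 weeks Ighm averaged 846 CPM where the B cell sum averaged 868 CPM, and Itgax 47.6 CPM where the dendritic cell sum averaged 54.0 CPM. At 14 weeks Xbp1 averaged 154 CPM where the plasma cell sum averaged 157 CPM, with Jchain at 0.195 and Igkc at 2.80 CPM. At 20 weeks that sum averaged 968 CPM, with Xbp1 at 321 CPM. Jchain then averaged 368 CPM (2.78 to 906 CPM in single mice) and Igkc 271 CPM (3.37 to 1394 CPM). Whether such reads came from other cells or from the neutrophils was not tested. The part of other cells' RNA in the results below was not tested.

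Promoters are shown for the gene that was called between 20 and 14 weeks, Klf2, and for Cebpb, which among the 7 members of moderate or high level varied most between mice of 1 age. Both are RefSeq sequences on GRCm38, on the plus strand, that end just before the GENCODE start of the gene. Capitals mark MEF2 sites (CTA and TAG with any 4 bases between them) and half-sites of the cyclic AMP response element (TGACG, or CGTCA where it lies on the minus strand).
Klf2, chr8:72318812-72319032: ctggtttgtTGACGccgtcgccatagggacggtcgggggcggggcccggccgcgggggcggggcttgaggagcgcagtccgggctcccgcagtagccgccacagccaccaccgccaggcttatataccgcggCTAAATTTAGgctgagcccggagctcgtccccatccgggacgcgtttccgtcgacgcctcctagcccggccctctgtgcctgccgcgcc
Cebpb, chr2:167688665-167688914: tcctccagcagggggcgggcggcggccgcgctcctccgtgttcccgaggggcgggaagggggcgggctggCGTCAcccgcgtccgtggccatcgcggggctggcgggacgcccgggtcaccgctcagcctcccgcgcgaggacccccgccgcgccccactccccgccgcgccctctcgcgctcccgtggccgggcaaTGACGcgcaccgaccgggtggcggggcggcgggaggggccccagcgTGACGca
The 221 bases of the Klf2 promoter held 1 MEF2 match, 1 half-site and 2 GC boxes (GGGCGG, left in lower case). The 250 bases of the Cebpb promoter held 3 half-sites, 5 GC boxes and no MEF2 match. Both strands were searched. In Cebpb 2 of the GC boxes share letters with each other, and no other matches do. Of 32851 RefSeq promoters of 250 bases, 3.2% held the MEF2 letters, 17.8% the half-site and 32.7% the GC box. The letters TATAAA of the TATA box (12.4% of promoters) and TTGCNNAA of a C/EBP site (9.56%) were in neither sequence. These matches describe the letters only. For Cebpa, whose promoter at chr7:35119043-35119292 is not printed, 1 TATA box was found.

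The 9 genes spanned a wide range of levels (plot of levels by age). To compare genes, CPM were divided by the length of the exons in kilobases. At 14 weeks Spi1 stood highest, at 486 ± 43.9 CPM per kb (SD, n = 6 mice here and for every mean below), followed by Cebpb at 375 ± 264, Cebpe at 167 ± 49.8, Klf2 at 141 ± 16.9 and Cebpd at 125 ± 14.0 CPM per kb. Cebpa followed at 11.96 ± 1.91, Runx1 at 3.15 ± 0.86 and Gfi1 at 2.21 ± 1.51 CPM per kb, and Irf8 was at 0. Among the top 5 genes the ranges of neighbours overlapped at every age. Within single libraries, Spi1 was above Klf2 and Klf2 above Cebpd in all 6 mice of 20 weeks, and Cebpe was above Cebpd in all 6 of 26 weeks. The other neighbours among the top 5 changed places in at least 1 library of the age. The ranges of the last of these 5 and Cebpa, and of Cebpa and Runx1, did not overlap at any of the 3 ages. At 20 weeks Cebpb had the highest mean (830 ± 451 CPM per kb) and Cebpe stood below Cebpd (102.2 ± 60.3 against 153 ± 18.4 CPM per kb). At 26 weeks Spi1 and Cebpb were level, at 479 ± 88.8 and 479 ± 172 CPM per kb.

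**Figure D1:**
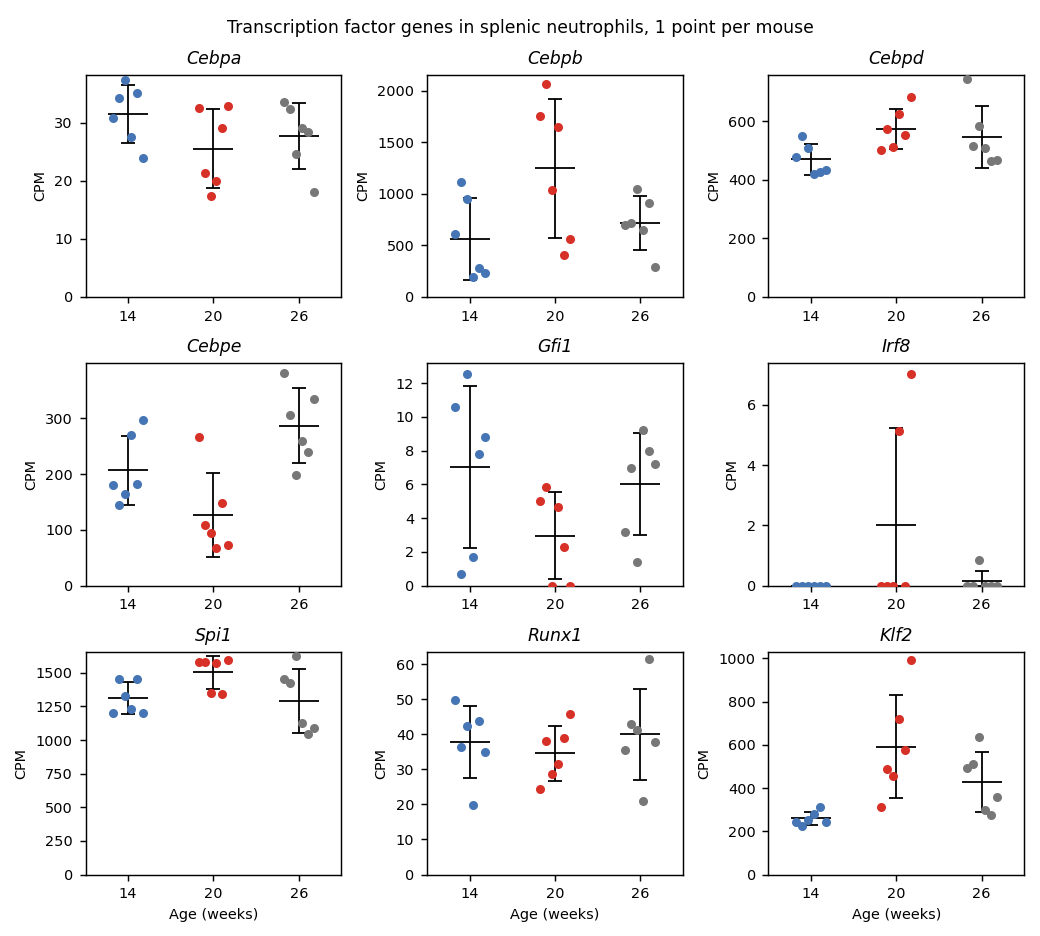
Level of each of the 9 genes (CPM, vertical axis, from 0) at 14, 20 and 26 weeks, 1 point per mouse, with bars for the mean and SD of 6 mice (bars end at 0 where the SD is larger than the mean). Klf2 was 227 to 313 CPM in the 14-week mice and 311 to 991 CPM in the 20-week mice, and Irf8 had counts in 3 of 18 libraries.

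Of the 9 genes, 8 had enough counts to be tested and Irf8 did not. At 20 against 14 weeks 1 of the 8, Klf2, passed an adjusted p of 0.05 in edgeR's quasi-likelihood test, where 10.2% of the 10104 genes tested did. Cebpb, Cebpe and Cebpd had an unadjusted p under 0.05 there (0.0207, 0.0238 and 0.0371) but did not pass. The share of all genes under that unadjusted p was not taken. Between 26 and 14 weeks 0 of 8 passed, against 11% of all genes tested. In that comparison 1 gene, Klf2, had an unadjusted p under 0.05, and DESeq2 and limma-voom each called it. At 26 against 20 weeks 1 of 8, Cebpe, passed, against 16% of all genes. In the test of any change with age Klf2 and Cebpe, 2 of 8, passed, against 23% of all genes. None of the 8 had CPM ranges that did not overlap between 2 ages, where 6.9% of all genes had such ranges at 20 against 14 weeks, 6.76% at 26 against 14 weeks and 5.96% at 26 against 20 weeks.

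**Figure D2:**
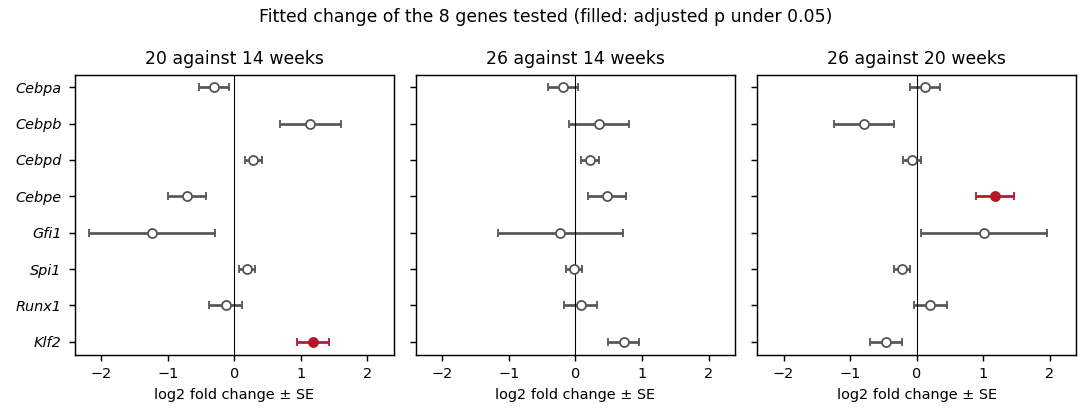
Fitted log2 fold change of the later over the earlier age (horizontal axis, ± SE) for the 8 genes tested, in 3 comparisons, with filled points where the adjusted p was under 0.05. The filled points are Klf2 at 20 against 14 weeks (1.19 ± 0.24) and Cebpe at 26 against 20 weeks (1.18 ± 0.29).

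Spi1 encodes PU.1, the ETS factor needed for all myeloid cells, and lies on chromosome 2 from 91082390 to 91115756 (GRCm38, as all positions here). It ranged from 1201 to 1451 CPM at 14 weeks (median 1277), from 1345 to 1593 CPM at 20 weeks (median 1574) and from 1043 to 1624 CPM at 26 weeks (median 1273). All 6 mice of 20 weeks were above the median of 14 weeks, and 4 of them were above every 14-week mouse. The log2 fold change was 0.20 ± 0.12 at 20 against 14 weeks (adjusted p = 0.356), -0.020 ± 0.12 at 26 against 14 weeks (0.954) and -0.22 ± 0.12 at 26 against 20 weeks (0.245). Spi1 was also among the steadiest genes between mice of an age. Its pooled within-age SD was 0.18 on the log2 CPM scale, where only 2.29% of 4453 genes of moderate or high level (mean log2 CPM of at least 4) were lower and their median was 0.44.

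Runx1, the gene of the core-binding factor subunit that sets up blood stem cells and early myeloid genes, lies on chromosome 16 from 92601466 to 92826149. It had a median of 39.4 CPM at 14 weeks (19.8 to 49.8), 34.8 CPM at 20 weeks (24.3 to 45.9) and 39.5 CPM at 26 weeks (21.0 to 61.4). The 3 ranges overlapped almost in full, and the log2 fold changes lay between -0.13 and 0.21 with SE of 0.25. The lowest adjusted p was 0.652, at 26 against 20 weeks, and the 95% interval of that difference ran from -0.32 to 0.73.

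Cebpa encodes the C/EBP factor that commits progenitors to granulocytes and lies on chromosome 7 from 35119293 to 35121928. It had a median of 32.5 CPM at 14 weeks (24.0 to 37.3), 25.2 CPM at 20 weeks (17.3 to 32.8) and 28.8 CPM at 26 weeks (18.1 to 33.5). At 20 weeks 3 of 6 mice were below every 14-week mouse, and the other 3 were inside the 14-week range. The log2 fold changes were -0.31 ± 0.22 at 20 against 14 weeks (adjusted p = 0.468), -0.19 ± 0.22 at 26 against 14 weeks (0.71) and 0.12 ± 0.22 at 26 against 20 weeks (0.783).

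Gfi1, which encodes the zinc finger repressor that favours granulocytes over monocytes, lies on chromosome 5 from 107716657 to 107726036. Its counts were few, from 8 to 154 at 14 weeks, 0 to 80 at 20 weeks and 25 to 89 at 26 weeks. In CPM the median was 8.31 at 14 weeks (0.683 to 12.5), 3.46 at 20 weeks (0 to 5.85) and 7.11 at 26 weeks (1.42 to 9.22). Replicates 3 and 6 of 20 weeks had 0 counts, which allows up to 0.287 and 0.301 CPM at 3 counts of their scaled totals (counting error only). All 6 mice of 20 weeks were below the median of 14 weeks, but the fold was poorly fixed. It was -1.24 ± 0.95 on the log2 scale at 20 against 14 weeks (adjusted p = 0.494), with a 95% interval from -3.23 to 0.75. At 26 against 20 weeks it was 1.01 ± 0.95 (adjusted p = 0.535) and at 26 against 14 weeks -0.23 ± 0.94 (0.928).

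Cebpe encodes C/EBP epsilon, the factor that switches on the genes of the secondary granules in myelocytes, and lies on chromosome 14 from 54710360 to 54712174. It was higher at 26 than at 20 weeks by 2.26-fold, and its 20-week level was the lowest of the 3 ages. The 26-week mice ranged from 199 to 382 CPM (median 283), against 68.2 to 268 CPM in the 20-week mice (median 101). All 6 of the 26-week mice were above the 20-week median and 3 were above every 20-week mouse, so the ranges overlapped. The log2 fold change was 1.18 ± 0.29 (adjusted p = 0.00874), and Cebpe was 1 of the 8.03% of genes called higher in that comparison. In an exact permutation test (two-sided) of log2 CPM the adjusted p over all genes was 0.0581, the only alternative of those run in which the call was lost.

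The 14-week mice had 146 to 298 CPM of Cebpe (median 181), which placed them between the other ages. At 20 against 14 weeks the log2 fold change was -0.71 ± 0.29 (adjusted p = 0.137), and 4 of 6 mice of 20 weeks were below every 14-week mouse. A single 20-week library decided this value. Replicate 1 of 20 weeks had 268 CPM and the other 5 mice of that age 68.2 to 149 CPM. Without replicate 1 the log2 fold change was -1.07 with an adjusted p of 0.00533. The change at 26 against 14 weeks was 0.47 ± 0.29 (adjusted p = 0.357). The summed neutrophil markers had the same order of ages (20, 14, 26 weeks from low to high). Of the 8, S100a8, S100a9, Ly6g and Retnlg had it singly, while Csf3r was highest at 20 weeks and Cxcr2, Mmp9 and Itgam were lowest at 26 weeks. Summed levels of 7 progenitor markers also had this order, with medians of 53.2, 37.6 and 62.6 CPM at 14, 20 and 26 weeks. Singly only Myb had it, with means of 14.8, 10.7 and 20.9 CPM at 14, 20 and 26 weeks. Kit was highest at 14 weeks (22.7, 5.16 and 7.40 CPM). Ms4a3 (0.458, 1.20 and 7.86 CPM) and Prss57 (14.6, 15.5 and 23.1 CPM) were lowest at 14 weeks. Ly6a was highest at 20 weeks and Cd34 lowest at 26 weeks, both at low levels. Mpo was at 0 in 5 of 6 libraries of each age. The sum of 8 T cell markers, most of it Cd3d, had medians of 136, 66.1 and 191 CPM. The summed B cell, plasma cell, monocyte and dendritic cell markers were highest at 20 weeks. The part of these cells in the values of Cebpe and of its targets was not tested. In these bulk samples fewer cells of a type and less RNA per cell cannot be told apart.

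Cebpb, a gene with a single exon on chromosome 2 from 167688915 to 167690418, had the largest spread between mice among the 7 tested genes of moderate or high level (Gfi1, whose counts were few, had a larger SD of 1.76 and was not compared). Its pooled within-age SD was 0.92 on the log2 CPM scale, and 93.2% of the 4453 genes compared were lower. The highest mouse exceeded the lowest 5.92-fold at 14 weeks, 5.08-fold at 20 weeks and 3.64-fold at 26 weeks, where those of Spi1 differed by 1.21-, 1.18- and 1.56-fold. At 14 weeks replicates 1, 2 and 3 had 609, 1119 and 950.0 CPM, and replicates 4, 5 and 6 had 189, 284 and 231 CPM. At 20 weeks replicates 1 to 4 had 1761, 2065, 1041 and 1647 CPM, and replicates 5 and 6 had 406 and 567 CPM. Mice of an age thus lay apart in Cebpb, with no mouse between 284 and 609 CPM at 14 weeks and none between 567 and 1041 CPM at 20 weeks. At 26 weeks 5 mice had 653 to 1046 CPM and replicate 6 had 287 CPM. At each age the mice with low Cebpb were those with the last replicate numbers. The labels do not say what a number stands for, and its part in the Cebpb values was not tested.

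Between the ages, Cebpb had a median of 1344 CPM at 20 weeks against 446 CPM at 14 weeks, and 3 of 6 mice of 20 weeks were above every 14-week mouse. The log2 fold change was 1.15 ± 0.46 (adjusted p = 0.126), with a 95% interval from 0.19 to 2.10. It did not pass the threshold, and of the alternatives run only the fit with the replicate number as a block called it (1.26, adjusted p = 0.043). For 26 against 14 weeks the medians were 709 and 446 CPM, with a log2 fold change of 0.35 ± 0.45 (adjusted p = 0.73). At 26 against 20 weeks all 6 mice were below the 20-week median, with a change of -0.79 ± 0.45 (adjusted p = 0.263). Of the 1504 exon bases of Cebpb, 312 (20.7%) are also exon bases of Tmem189, which lies on the opposite strand. No source used here states whether counting kept the strands apart, so reads of this overlap cannot be told apart. Tmem189 averaged 543 ± 284 CPM at 20 weeks and 286.5 ± 161 CPM at 14 weeks, and its log2 CPM followed that of Cebpb over the 18 libraries with a Pearson r of 0.988.

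Cebpd is a gene of a single exon on chromosome 16, from 15887286 to 15891031. Unlike Cebpb it differed little between mice of an age, with a pooled SD of 0.20 on the log2 CPM scale (3.37% of genes lower). It ranged from 502 to 682 CPM at 20 weeks (median 561) against 418 to 550.1 CPM at 14 weeks (median 455), and from 465 to 742 CPM at 26 weeks (median 510.1). All 6 mice of 20 weeks and all 6 of 26 weeks were above the 14-week median. The log2 fold change at 20 against 14 weeks was 0.29 ± 0.13, with an unadjusted p of 0.0371 and an adjusted p of 0.182. It was 0.22 ± 0.13 at 26 against 14 weeks (adjusted p = 0.339) and -0.070 ± 0.13 at 26 against 20 weeks (0.776). Cebpd shares 562 exon bases (15%) with Spidr on the other strand. Spidr was called lower at 26 against 14 weeks (-0.94 ± 0.21, adjusted p = 0.00802), and its r with Cebpd over 18 libraries was -0.053. Smaller stretches are shared with antisense or noncoding genes by Cebpa (51 bases), Gfi1 (101 bases) and Runx1 (106 bases).

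The balance within the C/EBP family was taken per library as each gene's share of the summed CPM per kb of Cebpa, Cebpb, Cebpd and Cebpe. The share of Cebpb averaged 49.7 ± 20.0% at 14 weeks, 71.5 ± 14.0% at 20 weeks and 53.7 ± 13.0% at 26 weeks. That of Cebpe averaged 28.6 ± 15.5%, 10.5 ± 6.56% and 28.0 ± 10.3% at 14, 20 and 26 weeks. The ratio of Cebpb to Cebpe had a median of 7.73 at 20 weeks (2.25 to 19.9) against 2.04 at 14 weeks (0.578 to 6.34), and 2.01 at 26 weeks (0.708 to 4.35). The ranges of all 3 ages overlapped. Replicates 4 and 6 of 14 weeks and replicate 6 of 26 weeks were the libraries in which Cebpe exceeded Cebpb. Cebpa made up 0.498 to 2.88% of the sum in every library. The family is shown by library in the plot of C/EBP shares, and no test was made of these shares.

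**Figure D3:**
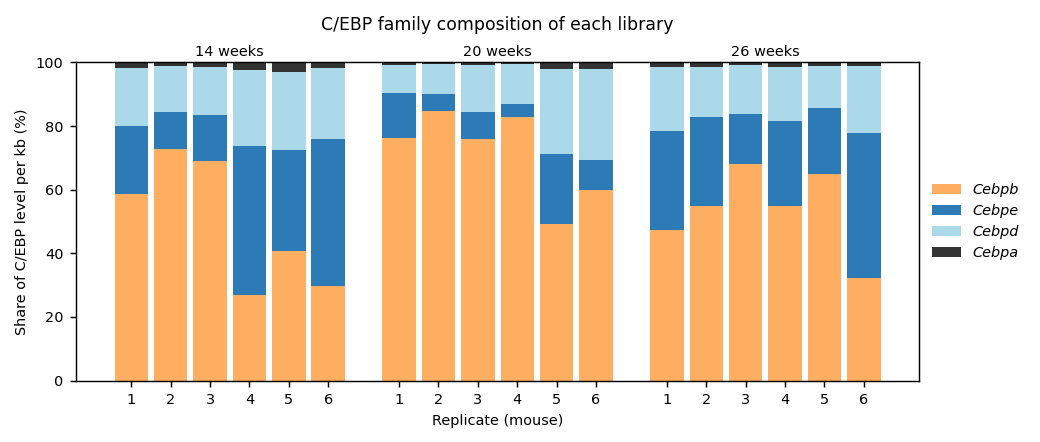
Share of each C/EBP gene (percent of the summed CPM per kb of Cebpb, Cebpe, Cebpd and Cebpa, vertical axis from 0) in each of the 18 libraries, grouped by age, with 1 bar per mouse. Cebpb ranged from 49.3 to 84.7% at 20 weeks and from 27.0 to 72.9% at 14 weeks.

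Klf2 encodes a zinc finger factor that keeps lymphocytes and myeloid cells quiescent and sits on chromosome 8 from 72319033 to 72321656. It was the member called higher at 20 against 14 weeks, at 591 ± 238 CPM against 259.6 ± 31.2 CPM, or 2.28-fold. The 20-week mice ranged from 311 to 991 CPM (median 533), against 227 to 313 CPM in the 14-week mice (median 248). All 20-week mice except replicate 1, at 311 CPM, were above every 14-week mouse. The log2 fold change was 1.19 ± 0.24 (adjusted p = 0.00368), and 4.93% of all genes were called higher in that comparison. The call held in every alternative run, with adjusted p from 2.86e-05 to 0.0426.

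At 26 weeks Klf2 averaged 428 ± 141 CPM, with mice from 276 to 634 CPM (median 425). All 6 were above the 14-week median and 4 were above every 14-week mouse. The log2 fold change at 26 against 14 weeks was 0.72 ± 0.24 with an adjusted p of 0.0564, which missed the threshold by little. It was called in 6 of the 10 alternatives other than leaving 1 library out (adjusted p from 0.013 to 0.11 over the 10). Among the 6 was the fit of only the 2 ages compared, which held no 20-week library. It was also called in 5 of the 18 fits with 1 library left out, namely without replicate 1, 3 or 6 of 20 weeks (0.034, 0.0488 and 0.033) and without replicate 4 or 5 of 26 weeks (0.0308 and 0.0395). Against 20 weeks the 26-week change was -0.46 ± 0.24 (adjusted p = 0.207). Klf2 was steady among 14-week mice, whose highest exceeded the lowest 1.38-fold, and spread more at 20 weeks (3.18-fold) and 26 weeks (2.3-fold). The summed B cell, plasma cell, monocyte and dendritic cell markers above had their highest median at 20 weeks, as Klf2 did, and their part in its rise was not tested.

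Irf8 encodes the interferon regulatory factor that directs monocyte and dendritic cell fate and is also used by B cells. It spans chromosome 8 from 120736358 to 120756694. It had 0 counts in 15 of the 18 libraries. All 6 libraries of 14 weeks were at 0, which over the age allows up to 0.0446 CPM. At 20 weeks replicate 4 had 55 counts (5.13 CPM) and replicate 6 had 70 counts (7.03 CPM). At 26 weeks replicate 3 had 15 counts (0.850 CPM). Over the 6 libraries pooled, Irf8 was at least 41.7-fold higher at 20 than at 14 weeks, and at least 5.65-fold higher at 26 than at 14 weeks, against the floor of 3 counts over the 14-week libraries. These bounds rest on 2 libraries at 20 weeks and 1 at 26 weeks. With no filter on low counts the adjusted p was 0.0794 at 20 against 14 weeks, 0.244 at 26 against 14 weeks and 0.236 at 26 against 20 weeks. The libraries with Irf8 counts also held other cells' markers. Replicate 4 of 20 weeks had the highest summed B cell markers of all (1853 CPM). Replicate 6 had the highest summed plasma cell (2075 CPM) and dendritic cell markers (82.8 CPM), and replicate 3 of 26 weeks had the highest B cell and dendritic cell sums of its age (268 and 30.7 CPM). Libraries at 0 Irf8 counts held such markers too. Replicates 1 and 3 of 20 weeks had B cell sums of 1057 and 984 CPM, above the 853 CPM of replicate 6. Summed monocyte and macrophage markers were highest of all in replicates 4 and 6 of 20 weeks (1222 and 1085 CPM). Replicate 2 of that age, at 0 Irf8 counts, was close to them at 1064 CPM, and replicates 1 and 3 were lowest (612 and 740 CPM). Replicate 3 of 26 weeks had the highest monocyte and macrophage sum of its age (569 CPM). The part of other cells in the Irf8 counts was not tested.

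Genes that these factors are known to switch on were counted next, in lists drawn up from textbook roles. The lists were chosen with earlier results of these data known. They are described beside all genes tested, and no test was made of a list. Of 11 tested genes of the secondary granules and other C/EBP epsilon targets, 10 were called lower at 20 against 14 weeks, where 5.27% of all genes were. Their median log2 fold change was -1.23, and that of all genes -0.021. At 26 against 20 weeks 7 of 11 were called higher, beside 8.03% of all genes, and 0 lower, with a median of 1.22 against 0.053 for all genes. At 26 against 14 weeks 3 were higher (Camp, Lcn2 and Ngp) and 1 lower (Mmp8), beside 5.45% and 5.54% of all genes.

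Lcn2, the gene of the iron-scavenging lipocalin 2, averaged 4396 ± 1530 CPM at 20 weeks against 12659 ± 1797 CPM at 14 weeks (-1.53 ± 0.26, adjusted p = 0.00112). It averaged 27019 ± 10522 CPM at 26 weeks (2.62 ± 0.27 against 20 weeks, adjusted p = 3.47e-05), and its 20-week range overlapped neither of the others. Camp, which encodes the cathelicidin peptide, was not called at 20 against 14 weeks (-0.73 ± 0.37, adjusted p = 0.25) and was 6.02-fold higher at 26 against 20 weeks (adjusted p = 0.000368). Mmp8, the neutrophil collagenase gene, fell at 20 weeks (-1.36 ± 0.20 against 14 weeks, adjusted p = 0.000486) and was not called at 26 weeks (0.36 ± 0.20 against 20 weeks, adjusted p = 0.241). Lyz2, the lysozyme gene, was 2.61-fold higher at 26 against 20 weeks (adjusted p = 0.000239).

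Over the 18 libraries the log2 CPM of Cebpe correlated positively with all 11 of these targets. The median Pearson r was 0.826, from 0.489 for Mmp8 to 0.928 for Ngp, and the median r of Cebpe with all other tested genes was 0.159. These r are descriptions over libraries that share ages, depth and cell makeup, and no p was computed. The same holds for the other r given below.

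**Figure D4:**
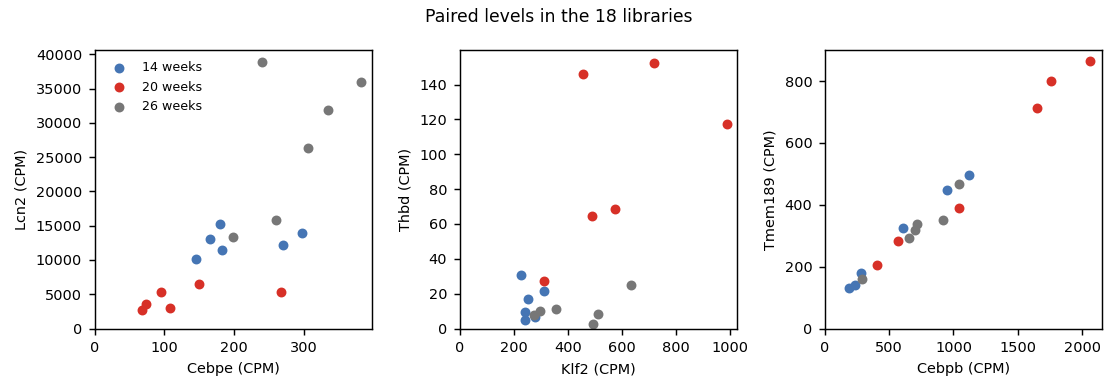
CPM in each of the 18 libraries, coloured by age, of Cebpe against its known target Lcn2 (left), Klf2 against its known target Thbd (middle), and Cebpb against the overlapping gene Tmem189 (right), with all axes from 0. Lcn2 was 2644 to 6510 CPM at 20 weeks and 13382 to 38826 CPM at 26 weeks, and Cebpb and Tmem189 followed each other over the whole range.

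Primary granule genes, which C/EBP alpha, PU.1 and RUNX1 activate in promyelocytes, were mostly too low to test. Of the 8 in the list 3 were tested, and 1 of them, Fcnb (ficolin B), was called higher, at 26 weeks, beside 8.03% of all genes against 20 weeks and 5.45% against 14 weeks. It averaged 142 ± 51.5 CPM at 26 weeks, against 28.9 ± 17.9 CPM at 20 weeks (2.29 ± 0.53, adjusted p = 0.00533) and 21.2 ± 22.4 CPM at 14 weeks (2.74 ± 0.54, adjusted p = 0.00389).

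Of 9 tested inflammatory genes known as C/EBP beta and delta targets, 4 were called higher and 0 lower at 20 against 14 weeks, where 4.93% of all genes were called higher. Il1b, the gene of interleukin 1 beta, averaged 2574 ± 836 CPM at 20 weeks against 638 ± 333 CPM at 14 weeks (2.01 ± 0.35, adjusted p = 0.00127). Il1b was also higher at 26 against 14 weeks (1.36 ± 0.34, adjusted p = 0.014). The chemokine gene Cxcl2 was 5.53-fold higher at 20 against 14 weeks (adjusted p = 0.017), and Ccl3 was the other chemokine called. Saa3, which encodes an acute phase protein, was called at both later ages, but its 14-week mean of 0.0577 CPM was near the floor, so its fold is not given. Il1rn, which encodes the interleukin 1 receptor antagonist, was lower at 26 against 20 weeks (-0.68 ± 0.17, adjusted p = 0.0108). The median r of Cebpb with the 9 genes was 0.405, and that of Cebpd 0.459, beside -0.076 and -0.017 with all other tested genes.

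Of 7 tested KLF2 targets, 4 were called higher and 0 lower at 20 against 14 weeks (Thbd, Cdkn1a, Itga4 and Klf3), beside 4.93% and 5.27% of all genes. Their median log2 fold change was 1.09, and that of all genes -0.021. At 26 against 20 weeks 3 were called lower, where 7.98% of all genes were, and 0 higher. Thbd, which encodes the anticoagulant receptor thrombomodulin, averaged 96.1 ± 50.2 CPM at 20 weeks against 15.0 ± 10.0 CPM at 14 weeks (2.67 ± 0.53, adjusted p = 0.00324). Klf3, the gene of a related repressor, was 2.12-fold higher at 20 against 14 weeks (adjusted p = 0.018). Itga4, the alpha 4 integrin gene, was 2.23-fold higher (adjusted p = 0.0447). At 26 against 20 weeks, where Klf2 did not pass the threshold, Thbd was called lower, at 10.8 ± 7.54 CPM at 26 weeks against 96.1 ± 50.2 CPM at 20 weeks (-3.13 ± 0.54, adjusted p = 0.000798). Among the 7, r with Klf2 ran from -0.27 for S1pr1 to 0.797 for Itga4.

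Targets of PU.1 were divided. Of 16 tested, 5 were called higher (Csf1r, Csf3r, Cd14, Tlr4 and Mcl1) and 4 lower (among them Itgam, Itgb2 and Ncf1) at 20 against 14 weeks, beside 4.93% and 5.27% of all genes. Tlr4, the endotoxin receptor gene, averaged 154 ± 50.2 CPM at 20 weeks against 67.7 ± 13.4 CPM at 14 weeks (1.19 ± 0.27, adjusted p = 0.00774). Ncf1, a subunit gene of the phagocyte oxidase, averaged 839 ± 257 CPM at 20 weeks against 1913 ± 301 CPM at 14 weeks (-1.19 ± 0.19, adjusted p = 0.000709). Itgb2, the beta 2 integrin gene, fell at both later ages against 14 weeks, by 0.67 ± 0.12 and 0.76 ± 0.12 on the log2 scale (adjusted p = 0.0021 and 0.00154). In the comparison of 26 with 14 weeks 2 of 16 were higher and 3 lower (5.45% and 5.54% of all genes), and the same counts were found at 26 against 20 weeks (8.03% and 7.98%). The median r of Spi1 with these 16 genes was 0.056, beside -0.025 with all other tested genes. It was positive for 9 of the 16 (47.4% of all genes) and ran from -0.47 for Ncf1 to 0.737 for Csf3r. Of 10 tested IRF8 targets, 1 was higher and 1 lower in each comparison with 14 weeks, and 1 higher and 2 lower at 26 against 20 weeks. These counts are near the shares of all genes called in each direction, which were 4.93% higher and 5.27% lower at 20 against 14 weeks, 5.45% and 5.54% at 26 against 14 weeks, and 8.03% and 7.98% at 26 against 20 weeks. Those named were Csf1r and Cybb, Cst3 and Bcl6, and Cybb against Csf1r and Bcl6. Csf1r and Cybb stand in other lists too.

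**Figure D5:**
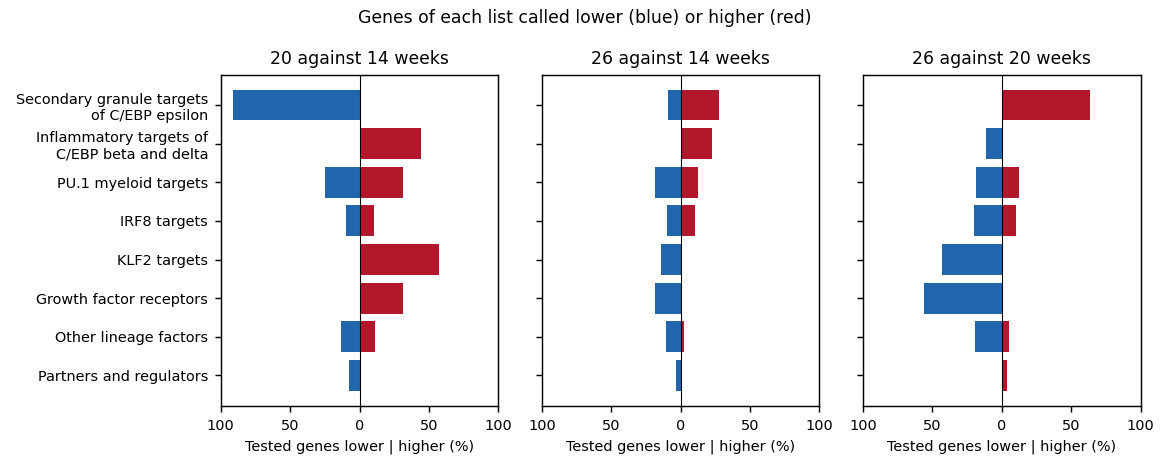
Percent of the tested genes of each list that were called lower (blue, to the left) or higher (red, to the right) at an adjusted p under 0.05, in the 3 comparisons of ages. At 20 against 14 weeks 10 of 11 secondary granule targets of C/EBP epsilon were lower and 4 of 7 KLF2 targets were higher.

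Of 16 tested receptor and signalling genes that act upstream of these factors, 5 were called higher and 0 lower at 20 against 14 weeks, where 4.93% of all genes were higher. Between 26 and 20 weeks 9 were called lower (7.98% of all genes) and 0 higher. The comparison of 26 with 14 weeks called 3 lower (5.54% of all genes) and 0 higher. Csf3r, which encodes the G-CSF receptor, averaged 4689 ± 1267 CPM at 20 weeks against 2027 ± 807 CPM at 14 weeks (1.21 ± 0.30, adjusted p = 0.012). Socs3, the feedback inhibitor of that receptor, was 4.82-fold higher (adjusted p = 0.000379). Csf1r, the receptor gene of macrophage growth factor and itself a monocyte marker, was 2.47-fold higher (adjusted p = 0.014). The kinase gene Jak1 was lower at 26 weeks against both younger ages, by 0.81 ± 0.13 on the log2 scale against 14 weeks (adjusted p = 0.00149).

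Of 37 tested other transcription factors of the lineage, 4 were called higher and 5 lower at 20 against 14 weeks, 1 and 4 at 26 against 14 weeks, and 2 and 7 at 26 against 20 weeks. In both directions together that is 24.3%, 13.5% and 24.3% of the list, beside 10.2%, 11% and 16% of all genes, so that the share at 26 against 14 weeks was near that of all genes. Klf6, a relative of Klf2 that promotes inflammatory genes in macrophages, averaged 1673 ± 310 CPM at 20 weeks against 957 ± 172 CPM at 14 weeks (0.80 ± 0.16, adjusted p = 0.0032). Klf6 was again lower at 26 against 20 weeks (-0.75 ± 0.16, adjusted p = 0.00313). Stat3, which carries G-CSF signals to the nucleus, was lower at 26 weeks against 14 weeks (-0.58 ± 0.15, adjusted p = 0.0143), and so was Stat5b (-0.72 ± 0.22, adjusted p = 0.0396). Rara, the retinoic acid receptor alpha gene, was lower at 26 against 20 weeks (-1.02 ± 0.23, adjusted p = 0.0044).

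Among 27 tested partners and regulators of the 9 factors 2 were called at 20 against 14 weeks (7.41%, near the 10.2% of all genes). In each of the other comparisons 1 was called (3.7%), beside 11% of all genes at 26 against 14 weeks and 16% at 26 against 20 weeks. Trib1, whose product drives the breakdown of C/EBP alpha, averaged 174 ± 45.1 CPM at 26 weeks against 299 ± 39.7 CPM at 14 weeks (-0.78 ± 0.17, adjusted p = 0.00776). Mapk7, which encodes ERK5, a kinase that activates MEF2 factors at the Klf2 promoter in endothelial cells, averaged 47.0 ± 20.6 CPM at 20 weeks against 98.0 ± 32.6 CPM at 14 weeks (-1.06 ± 0.30, adjusted p = 0.0295). The chromatin regulator gene Asxl1 was also lower at 20 against 14 weeks (-0.98 ± 0.22, adjusted p = 0.00794). Crebbp, the gene of the coactivator CBP, was higher at 26 against 20 weeks (0.99 ± 0.27, adjusted p = 0.0153).

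For each tested member the genes most like it in log2 CPM over the 18 libraries were named, out of 4225 genes of moderate or high level. For Cebpe they were Fam132a (r of 0.961), Usp39 (0.957) and Serpinb1a (0.949), the gene of an inhibitor of neutrophil proteases. For Cebpb they were Tmem189, the overlapping gene above, Per1 (0.941) and Cd14 (0.870), and within each age the r of Per1 ran from 0.897 to 0.972. For Klf2 they were Cnbp (0.918), Atp6ap2 (0.917) and Calm2 (0.915), with r within 14 weeks of 0.548, -0.011 and 0.263, so that among the 14-week mice the likeness was weak. For Spi1 they were Pilra (0.894), Pithd1 (0.888) and Ctsz (0.872). For Cebpd they were Crlf2 (0.835), Sertad1 (0.823) and Hmgb1 (0.820). For Gfi1 they were Rcor1 (0.827), Rinl (0.824) and Kif21b (0.789), with r within 14 weeks of 0.271, 0.496 and -0.153. Replicates 3 and 6 of 20 weeks, with 0 Gfi1 counts, had 0 and 0.301 CPM of Rcor1, the lowest of its age. The genes most like Cebpa (Coro1a, Snx6 and Rasgrp2, at 0.703 to 0.755) and Runx1 (Ly96, Dnajc30 and Slc15a3, at 0.642 to 0.757) had lower r.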

How the data were processed

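Neutrophil RNA was sequenced from single-end libraries made with the Nextera XT kit, per the labels' protocols. The deposited table holds unnormalized counts of reads for each gene symbol, built by the authors on GRCm38.p4. The tools named for it are DESeq, DESeq2 1.12.3, HTSeq 0.6.1, STAR 2.4.2a and Trimmomatic 0.32, per the submitters' processing notes. Which annotation was counted, and whether by strand, is not stated in those notes or labels. Groups and replicate numbers came from the sample titles.

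The main test was the robust quasi-likelihood F test of edgeR 4.0.16 (R 4.3.3). Low genes were removed by filterByExpr with age as the grouping, and libraries were scaled by TMM. A single fit held the 18 libraries, and age was its sole covariate. P-values were Benjamini-Hochberg adjusted over the 10104 genes tested, with a threshold of 0.05. CPM used TMM-scaled totals, log2 CPM a prior count of 2, and floors 3 counts. Counts are reads, not molecules, so floors cover counting error only, and library totals (5546624 to 17256379) limit the precision of low genes such as Gfi1 and Irf8. Over 45 pairs of libraries of an age the chi-square per gene averaged 26.1 to 182, well beyond counting error.

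The 9 members, the lists and the naming rule were chosen with earlier results of these data known. The rule names all members, up to 4 genes of each list called between any 2 ages (by the smallest p of any change with age), and the 3 genes most correlated with each tested member. Other genes named, such as Tmem189 and Spidr for shared exons, were chosen after their values were seen. Some genes that the rule or the lists name are not reported here. Gene positions, exon lengths and overlaps came from GENCODE M21 on GRCm38, where all 9 symbols matched, and promoters from RefSeq, where Cebpd, Cebpe and Spi1 had no entry. Alternatives were RLE and upper quartile factors, DESeq2 1.42.0, limma-voom (limma 3.58.1) with quality weights, exact permutation of log2 CPM, no filter, a fit of only the 2 ages compared, a stricter filter (10 CPM in 6 libraries), the library total as covariate, a replicate block and each library left out. List counts under other scalings and without replicate 3 of 20 weeks were added after seeing the data.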

Additional observations from a re-analysis of the deposited data

Results flagged for a closer look

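Irf8 at 26 weeks was set apart by a single mouse, replicate 3, at 0.850 CPM where the other 5 mice of that age were at 0. In all, 26 sets of 6 mice (a gene at an age) were compared for a sample far from the others, and chance alone sets about 1 in 20 apart. That rate does not apply to this set. With 5 of 6 mice at 0, any count in the remaining mouse sets it apart. That library had 15 Irf8 counts in a total of 17256379, the highest total of the 18 libraries.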

How the results depend on the processing

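The alternatives gave 860 recomputed values of the tested members (1 per gene, comparison and alternative), of which 827 kept their direction and side of the threshold, 1 lost a call, 13 gained one and 19 changed sign. The lost call was Cebpe at 26 against 20 weeks. The sign changes were all of values that were not called. Spi1 at 26 against 14 weeks (-0.020) became 0.022 with RLE factors and 0.019 with DESeq2, 0.081 with upper quartile factors, 0.0090 with no filter, 0.091 with the stricter filter and 0.049 with the library total as covariate, and ranged from -0.071 to 0.054 with 1 library left out. Gfi1 at 26 against 14 weeks became 0.041 with limma-voom and 0.073 in the permutation, and ranged from -0.47 to 0.016 with 1 library left out. Runx1 in the same comparison became -0.011 with the covariate, and ranged from -0.067 to 0.20 with 1 library left out. Cebpa at 26 against 20 weeks became -0.0099 with limma-voom. The causes were not tested.

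Genes called at 20 against 14, 26 against 14 and 26 against 20 weeks numbered 1030, 1111 and 1617. DESeq2 called 1727, 1808 and 2553. At 26 against 14 weeks limma-voom called 2633 and a fit of only those 2 ages 1710, and at 26 against 20 weeks the permutation called 1008. With 1 library left out the counts ranged from 702 to 1263, 652 to 1544 and 1141 to 1911, and for any change with age from 1780 to 2682 around 2321. At 26 against 14 weeks the counts were 652, 733 and 726 without replicate 1, 2 or 6 of 26 weeks. Upper quartile factors moved the median of all genes there to 0.14, and 62% of calls were then higher, against 49.6% with TMM.

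The labels do not say whether replicate numbers pair mice across ages. Same-numbered libraries, as deviations from their age means, had correlations from -0.053 to 0.14, with 1 of 18 pairs over 0.1. Among libraries of the other ages, 6 of the 18 were most like one of their own number. These values cannot decide whether the mice were paired. With the number as a replicate block 962, 946 and 1573 genes were called in the 3 comparisons and 2081 for any change with age. Without replicate 3 of 20 weeks, an alternative added after seeing the data, list counts of at least 3 stayed within 1.5 times, with 10 of 11 secondary granule targets lower and 3 of 7 KLF2 targets higher at 20 against 14 weeks. With upper quartile factors 3 other lineage factors were called lower at 20 against 14 weeks, against 5 with TMM.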
